A study of Mus musculus with 2 samples.

Results

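The genes described are 10 that liver cells use to take up, carry, store and release fatty acids: Fabp1, Cd36, Slc27a2, Slc27a4, Plin2, Plin4, Plin5, Cidec, Angptl4 and Pnpla2. They were chosen by symbol from 33224 gene symbols, and their values were read in regenerating livers of WT and PPARbeta-null mice (KO). The 10 symbols were found in 10 loci of the deposited expression table, since Plin4 and Plin5 shared 1 joint locus and Cidec had 2. Both groups were male C57BL/6 mice, given as 4 months old in the sample labels and with other or wider ages elsewhere in the description. They had food and water ad libitum, and their livers were taken 48 hr after partial hepatectomy (PH), a surgical removal of most of the liver. The authors reported that regeneration was delayed in KO mice, so the livers may differ in stage as well as genotype at this time. The part of this stage in the values of the 10 genes was not tested. The allele behind the PPARbeta-null genotype and the number of mice behind each library are not given in the sources used here. Each genotype was sequenced as 1 library, so no value carries an error between mice, no test between genotypes was possible, and a difference between the libraries has no replicate check.

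Hepatocytes take up fatty acids from the blood with the help of membrane proteins such as CD36 and the fatty acid transport proteins (FATPs, the Slc27a genes), and bind them in the cytosol to fatty acid binding proteins (FABPs). Fatty acids that are not burned or exported are stored as triglyceride in lipid droplets, whose surface is coated by perilipins and CIDE proteins and is attacked by lipases, and the regenerating liver is known for a passing build-up of such droplets. In stained sections, the authors saw this build-up in WT but not in KO livers, at an earlier time than the 48 hr of these libraries. Many of these genes are known targets of the peroxisome proliferator-activated receptors (PPARs), which bind DNA as partners of RXR at a repeat called DR1.

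The promoters of Fabp1, Plin2 and Cd36 are shown because they held a DR1-like match, and because Fabp1 and Plin2 had the largest ratios among the 10 genes and Cd36 was the single gene that was lower in KO. The promoters come from RefSeq on GRCm38.p6 and run from 250 bases before to 50 bases after the annotated start. They are written on the strand of the gene, with the match in capitals.
Fabp1 promoter, chr6:71199629-71199928, plus strand: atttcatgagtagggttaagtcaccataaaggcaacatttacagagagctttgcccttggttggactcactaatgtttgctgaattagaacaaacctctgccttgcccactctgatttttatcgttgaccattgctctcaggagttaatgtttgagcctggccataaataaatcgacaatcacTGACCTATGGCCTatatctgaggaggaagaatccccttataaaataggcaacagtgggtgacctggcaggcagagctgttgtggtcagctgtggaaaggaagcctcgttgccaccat
Plin2 promoter, chr4:86670010-86670309, minus strand: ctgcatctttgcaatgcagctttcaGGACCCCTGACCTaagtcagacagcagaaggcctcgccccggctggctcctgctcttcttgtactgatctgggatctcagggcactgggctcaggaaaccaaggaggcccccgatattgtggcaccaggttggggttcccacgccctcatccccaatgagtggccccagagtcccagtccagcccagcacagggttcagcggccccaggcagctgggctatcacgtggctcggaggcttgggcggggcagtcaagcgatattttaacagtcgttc
Cd36 promoter, chr5:17835847-17836146, minus strand: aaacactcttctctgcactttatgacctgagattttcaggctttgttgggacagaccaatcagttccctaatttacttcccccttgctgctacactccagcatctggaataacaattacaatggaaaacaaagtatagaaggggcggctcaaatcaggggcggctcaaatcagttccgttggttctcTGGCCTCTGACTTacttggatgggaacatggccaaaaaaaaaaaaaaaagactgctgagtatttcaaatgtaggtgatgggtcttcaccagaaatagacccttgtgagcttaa
The pattern was AGGTCA given 2 times in a row with 1 free base between, searched on both strands with up to 2 mismatches in the 12 fixed bases. The match of Fabp1 had 1 mismatch and those of Plin2 and Cd36 had 2, and each lay on the strand opposite to the gene. Counted in bases from the annotated start, its centre was at -61 in Fabp1, -219 in Plin2 and -57 in Cd36. RefSeq promoters were found for 9 of the 10 symbols, 11 promoters in all, and 3 of the 11 held such a match. Of all 32851 RefSeq promoters of this length, 1268 (3.86%) held one. Angptl4 had no entry in the promoter table.

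Further sites are shown for members whose match lay outside the promoter, found within 5 kb of the gene start on NCBIM37, the build of the deposited coordinates (mm9), with at most 1 mismatch. They are written on the strand of the match, with the match in capitals and 8 bases on each side.
Slc27a2 site, chr2:126381311-126381339, minus strand: gctatttcAGGTCAGAGGGCAactccgtg
Slc27a4 site, chr2:29662620-29662648, plus strand: tttcagcaGGGTCAGAGGTCAgggaggtg
Pnpla2 site, chr7:148639518-148639546, minus strand: ataagtttAGGTCATAGGTCCaaggggtc
Counted from the start of the gene, the centre of the match lay at 3182 bases in Slc27a2, at 4480 in Slc27a4 and, before the start, at -1565 in Pnpla2. The Fabp1 match above also lay in this window, at -9 from the gene start used here, which differs from the RefSeq start. With it, 4 of the 10 genes had a match in this window, and 0 of them an exact one. Among the windows of 22089 protein-coding genes, 4134 (18.7%) held a match and 469 (2.12%) an exact one. Binding of a receptor to these bases was not measured in these data, and a match describes letters alone.

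Expression was given as FPKM, which the authors estimated for each locus by dividing its fragments by exon length in kilobases and by the mapped total of the library. From the steps between the lowest values of single-exon genes, 1 fragment on 1 kb was worth about 0.0181 FPKM in the WT and 0.0185 FPKM in the KO library, or about 55.4 and 54.1 fragments for each FPKM and kb. The intervals given for ratios are exact binomial 95% intervals on fragments estimated in this way, and cover counting error only. A gene is called expressed here when its FPKM, averaged over both libraries, reached 1. The 11723 expressed genes had a median log2 ratio of KO to WT of -0.24, so the typical gene had 0.849 of its WT level in the KO library. Log2 ratios were taken after adding 0.1 FPKM to each value. Ppard, the targeted gene, stood at 2.67 FPKM in WT and 2.42 FPKM in KO liver, and this value of the whole locus does not tell the genotypes apart.

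The 10 genes lay mostly on the higher side in the KO library. Of the 10, 9 were higher in KO and 1, Cd36, was lower, and 10 of 10 were expressed. Fabp1, Plin2, Cidec and the joint locus of Plin4 and Plin5 were higher in KO by at least 2-fold, which makes 5 of 10 genes, or 4 of 9 separate values. Among all expressed genes, 1.71% were higher in KO by at least 2-fold and 8.23% lower, and 0 of the 10 genes were lower to that extent. At least 1.5-fold higher in KO were 7 of the 10, and 0 were that much lower, against 3.99% and 19.1% of all expressed genes. Higher by any amount were 24.4% of expressed genes. The median log2 ratio of the 10 genes was 0.92, or 0.66 with the joint locus counted once, against -0.24 for all. After centring all genes on their median, 9 remained higher and 5 were still past 2-fold, with 2.69% of all genes higher and 5.77% lower to that extent. The values nearest the 2-fold line on the log2 scale were 1.18 inside, for the joint locus, and 0.66 outside, for Slc27a2.

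**Figure D1:**
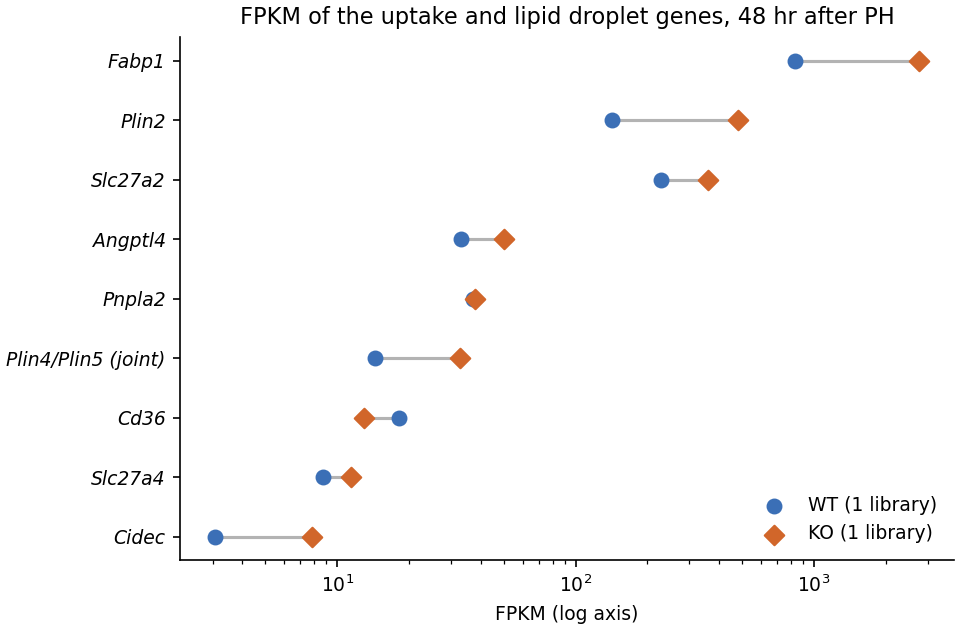
FPKM of each uptake and droplet gene in the WT and the KO library on a log axis, 1 point per library, with a line joining the points of a gene. Fabp1 and Plin2 show the widest gaps, the points of Pnpla2 nearly coincide, and Cd36 is the gene whose KO point lies to the left of its WT point, at a lower FPKM.

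**Figure D2:**
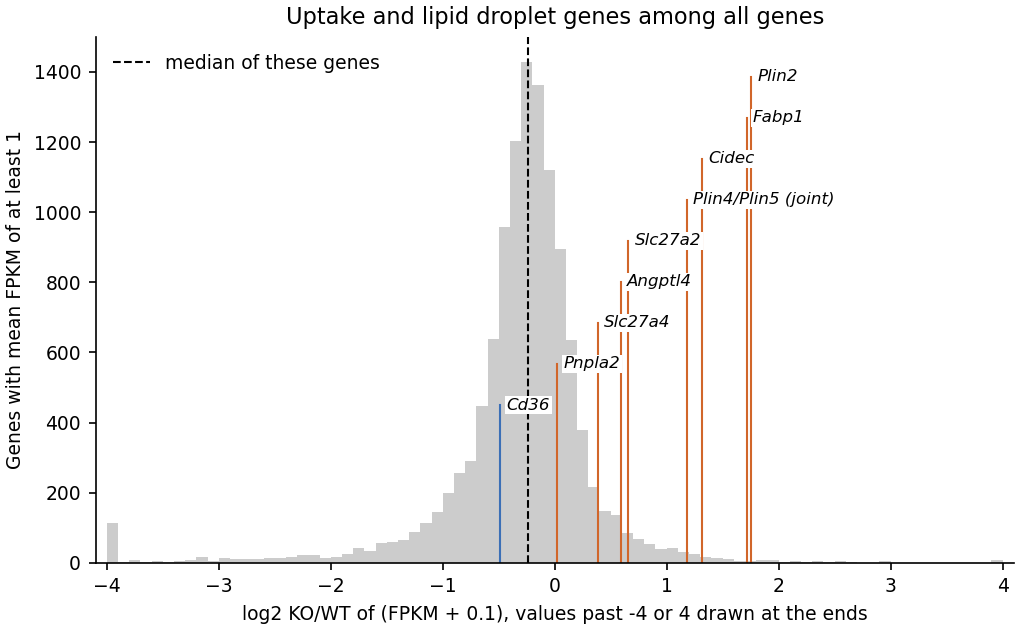
Histogram of the log2 KO/WT ratio of the 11723 expressed genes, with the value of each uptake and droplet gene as a coloured line whose height has no meaning. The dashed line marks the median of all genes at -0.24, and the other lines lie to its right except that of Cd36 at -0.49.

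Fabp1 encodes the main fatty acid binding protein of the hepatocyte cytosol (chr6:71149821-71155017 on NCBIM37, plus strand). Fabp1 stood at 835 FPKM in WT liver and at 2743 FPKM in KO liver, 3.28-fold higher in KO (counting interval 3.24 to 3.33). It ranked 89 among all symbols in WT and 32 in KO, and 0.478% of expressed genes had a higher log2 ratio than its 1.72. Fabp1 was the most abundant of the 10 genes in both libraries. Together the 10 genes summed to 1319 FPKM in WT and 3734 in KO, and Fabp1 gave the larger part of both sums.

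Among the FABPs, Fabp1 held 91.9% of the summed FPKM in WT and 97.3% in KO. Fabp2, the intestinal form, was at 24.4 and 51.2 FPKM, 2.10-fold higher in KO. Fabp5, the epidermal form, went the other way, with 29.3 FPKM in WT and 6.35 in KO, 4.61-fold lower. Fabp4, the adipocyte and macrophage form, was at 18.1 and 17.4 FPKM. Of the 8 FABPs other than Fabp1, 4 were expressed, of which 1 was past 2-fold higher and 1 past 2-fold lower, and 2 were listed at 0 in both libraries. Past 2-fold higher and lower were 1.71% and 8.23% of all expressed genes.

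Slc27a2 encodes FATP2, a transporter of the liver that is also a very long-chain acyl-CoA synthetase (gene at chr2:126378143-126413979, plus strand). Its FPKM was 227 in WT and 359 in KO, 1.58-fold higher in KO (counting interval 1.56 to 1.60), and 3.38% of expressed genes had a higher log2 ratio. Its locus also covers Gm16762, a non-coding gene on the opposite strand with a row of its own at 7.71 FPKM in WT and 12.5 in KO. The library kit does not mark the strand, so where the 2 genes overlap their reads cannot be told apart.

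Slc27a4 encodes FATP4, another transporter with acyl-CoA synthetase activity (chr2:29658154-29673688, plus strand). It stood at 8.74 FPKM in WT and 11.5 in KO, 1.31-fold higher in KO (counting interval 1.23 to 1.39). Slc27a5, the bile acid and fatty acid CoA ligase of the liver, was the other abundant FATP, and it was lower in KO, with 268 and 173 FPKM, or 1.55-fold. The order of the leading FATPs was therefore opposite in the libraries: Slc27a2 was at 0.850 of the Slc27a5 level in WT and at 2.08 times that level in KO. As a share of the FATP sum, which was 505 FPKM in WT and 544 in KO, Slc27a2 made up 45.0% and 65.9%. Slc27a1, the FATP of muscle and fat, was at 0.768 and 0.847 FPKM.

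**Figure D3:**
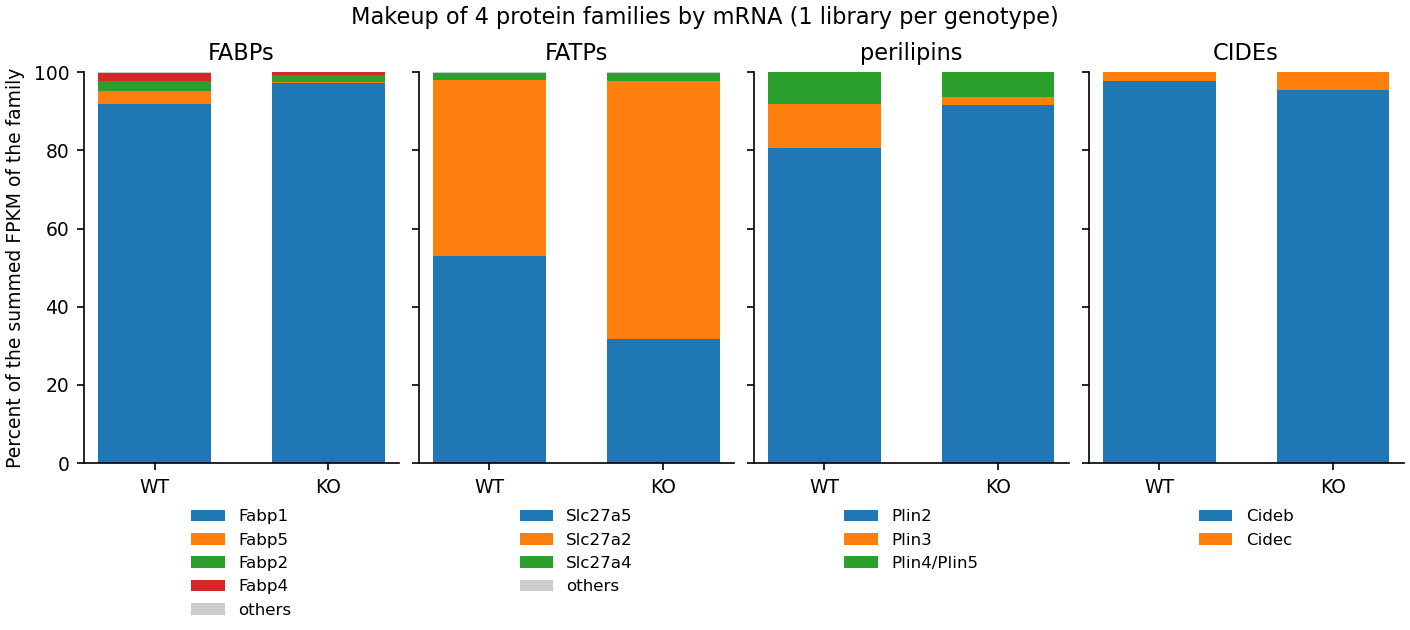
Share of each gene in the summed FPKM of its family, in percent, for perilipins, FABPs, FATPs and CIDEs, with 1 bar per library. Plin2 and Fabp1 fill most of their families in both libraries, and the leading FATP is Slc27a5 in WT and Slc27a2 in KO.

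Cd36, the scavenger receptor and fatty acid translocase of the cell surface, was the exception (chr5:17287508-17394777, minus strand). WT liver had 18.1 FPKM and KO liver 12.9 FPKM of it, 1.40-fold lower in KO, a ratio of 0.712 with a counting interval of 0.676 to 0.750. On the log2 scale the difference was -0.49, and 24.7% of expressed genes had a lower value, so Cd36 lay within the main body of genes. Relative to the median gene its log2 difference was -0.25. Macrophages and endothelial cells of the liver also express Cd36, and most of their markers were lower in KO, as was the median gene. The 10 macrophage markers summed to 99.9 FPKM in WT and 65.2 in KO, with 9 of 10 lower, and the 8 endothelial markers to 52.0 and 38.0, with 7 of 8 lower. Only 24.4% of all expressed genes were higher in KO. Relative to the median gene, 9 of 10 macrophage and 5 of 8 endothelial markers were lower, and 0 markers of either list were at 0 in both libraries. The part of these cells in the Cd36 value was not tested, and in bulk liver fewer cells of a type and less RNA per cell cannot be told apart.

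Of 4 other expressed genes of uptake and binding, 1 was higher and 3 were lower in KO, or 2 and 2 relative to the median gene, and 1 was past 2-fold lower. Past 2-fold lower were 8.23% of all expressed genes, and 24.4% were higher by any amount. Scp2, the sterol carrier protein, was at 999.8 FPKM in WT and 1375 in KO, and Dbi, the acyl-CoA binding protein, at 798 and 580. Cav1, the coat protein of caveolae that endothelial cells and adipocytes express strongly, was at 2.65 and 0.684 FPKM, 3.87-fold lower in KO.

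Plin2 encodes perilipin 2, the main droplet coat protein of hepatocytes (gene at chr4:86294290-86315964, minus strand). Its FPKM was 142 in WT and 480 in KO (479.8), 3.38-fold higher in KO (counting interval 3.32 to 3.44). This was the largest ratio of the 10 genes with the rows of Cidec summed, and 0.461% of expressed genes had a higher log2 ratio than its 1.76. Its rank among all symbols was 577 in WT and 140 in KO. Plin2 stood below Slc27a2 in WT, at 0.624 of its level, and above it in KO, at 1.34 times its level. The Plin2 locus also spans Gm12551, a pseudogene whose own row was at 0.0608 FPKM in WT and 0.144 in KO. Macrophages make Plin2 too, and their part in the Plin2 value was not tested.

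Plin4 and Plin5 lie side by side on chromosome 17 (chr17:56240014-56249225 and chr17:56251024-56257019, minus strand) and were quantified as 1 locus. Perilipin 4 coats small new droplets of adipocytes, and perilipin 5 links droplets to mitochondria in tissues that burn fat. Their joint FPKM was 14.4 in WT and 32.7 in KO, 2.27-fold higher in KO, and the parts of the 2 genes in this value cannot be told apart. The locus also spans Hdgfrp2, which has a row of its own at 10.7 FPKM in WT and 7.74 in KO, lower in KO where the joint locus was higher.

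Plin2 made up 80.6% of the perilipin sum in WT and 91.6% in KO. Plin3, a perilipin found in many cell types, was lower in KO, with 19.8 and 11.3 FPKM, and its share of the sum was 11.2% in WT and 2.15% in KO. The share of the joint locus was 8.16% and 6.24%, so it was smaller in KO although its FPKM was higher. Plin1, the perilipin of adipocytes, was at 0.0245 FPKM in WT and listed at 0 in KO.

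Cidec encodes a protein that lets droplets fuse and grow (gene at chr6:113374628-113385754, minus strand). It was the least abundant of the 10 genes, at 3.08 FPKM in WT and 7.84 in KO, 2.54-fold higher in KO (counting interval 2.22 to 2.92). Its value is the sum of 2 rows with the same span but different levels. The first had 1.90 FPKM in WT and 6.72 FPKM in KO liver, 3.53-fold higher (counting interval 2.99 to 4.19, from about 181 and 625 fragments). The second had 1.18 FPKM in WT and 1.12 FPKM in KO liver, a ratio of 0.947 (counting interval 0.718 to 1.25, from about 112 and 104 fragments). In the listed values the difference in Cidec thus lay in the first row. That row has an identifier among those of minus-strand genes, the strand of Cidec, in 20 of its 20 nearest neighbours, and the second has one among plus-strand genes, also in 20 of 20. The library kit does not mark the strand, so how the reads of this span were split between the 2 rows is uncertain. The 2 ratios need not be those of 2 transcripts.

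Cideb, the family member of hepatocytes with a role in VLDL loading, was at 143 FPKM in WT and 164 in KO and made up 97.8% and 95.4% of the CIDE sum. Cidec made up 2.11% of it in WT and 4.56% in KO. Because Plin4 and Cidec are also strongly expressed in fat, the 7 adipocyte markers were read: Lep was at 0 in both libraries, and Adipoq, Retn, Cfd and Plin1 were at 0 in KO and at 0.0256, 0.0791, 0.312 and 0.0245 FPKM in WT. The 2 adipocyte markers above 1 FPKM were Fabp4 and Lipe, and the list summed to 22.2 FPKM in WT and 20.8 in KO.

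Of 11 further expressed genes of droplet coat and formation, 1 was past 2-fold higher and 0 past 2-fold lower. The shares over all expressed genes were 1.71% and 8.23%. The gene past 2-fold higher was Hilpda, a small droplet protein that inhibits the lipase encoded by Pnpla2, listed under its older symbol 2310016C08Rik. It was at 1.94 FPKM in WT and 7.10 in KO, 3.67-fold higher. Hsd17b13, an abundant droplet enzyme of the liver, was at 206 and 118 FPKM, and Fitm1, which helps to form droplets, at 14.4 and 7.48.

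Pnpla2 encodes ATGL, the lipase that takes the first fatty acid from triglyceride (chr7:148641097-148646642, plus strand). It stood at 37.1 FPKM in WT and 37.8 FPKM in KO liver, a ratio of 1.02 with a counting interval of 0.979 to 1.06. On the deposited FPKM scale this interval held 1, so the difference lay within counting error. The interval says nothing on the spread between mice. Relative to the median gene the ratio of Pnpla2 was 1.20, and 22.2% of expressed genes had a higher log2 ratio than its 0.02. The inhibitors G0s2 and Hilpda had higher ratios than Pnpla2 itself. G0s2 was at 12.8 FPKM in WT and 80.1 in KO, 6.24-fold higher. Relative to Pnpla2 in the same library, G0s2 was at 0.346 in WT and 2.12 in KO, and Hilpda at 0.0522 and 0.188. Abhd5, the activator of ATGL, picked out after seeing its values, was at 0.382 of the Pnpla2 level in WT and 0.313 in KO. The Plin2 level was 3.82 times that of Pnpla2 in WT and 12.7 times in KO.

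Of the 9 other expressed genes of intracellular lipolysis, 2 were past 2-fold higher and 2 past 2-fold lower. For all expressed genes these shares were 1.71% and 8.23%. Mgll, the lipase of monoglycerides, was the other higher gene, with 25.7 and 51.7 FPKM, picked out here after seeing its values, and is also counted among the PPAR targets described later. The lower genes were the carboxylesterases Ces1d, with 112 and 42.6 FPKM, and Ces1g, with 74.3 and 21.9. These belong to a tandem family of closely similar copies, so how reads were split between them is uncertain. Aadac, an esterase of the endoplasmic reticulum, was at 191 and 160 FPKM.

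Angptl4 encodes a secreted inhibitor of lipoprotein lipase, which frees fatty acids from circulating triglyceride (chr17:33910702-33918520, minus strand). Its FPKM was 33.2 in WT and 49.9 in KO, 1.51-fold higher in KO (counting interval 1.45 to 1.56), and 3.95% of expressed genes had a higher log2 ratio.

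Of the 11 expressed circulating lipases and regulators beside Angptl4, 0 were past 2-fold higher and 2 past 2-fold lower, Lpl among them. The shares over all expressed genes were 1.71% and 8.23%. Lpl, lipoprotein lipase itself, was at 3.54 FPKM in WT and 1.55 in KO, and is likewise given after seeing its values. The apolipoproteins that regulate it were among the abundant genes of this list: Apoc3, an inhibitor, was at 1971 and 2025 FPKM, and Apoc2, the activator, at 1207 and 1068. Apoa5, another activator, was at 242 and 373 FPKM, 1.54-fold higher in KO.

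Over the 6 lists of related genes together, 51 genes were found, 40 of them expressed. Of these 40, 4 (10%) were past 2-fold higher in KO, namely Fabp2, Hilpda, G0s2 and Mgll, and 6 (15%) past 2-fold lower, among them Fabp5, Cav1, Lpl, Ces1d and Ces1g. Among all expressed genes 1.71% and 8.23% were past these limits. The median log2 ratio of the 40 was -0.13, against 0.92 for the 10 uptake and droplet genes and -0.24 for all genes.

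**Figure D4:**
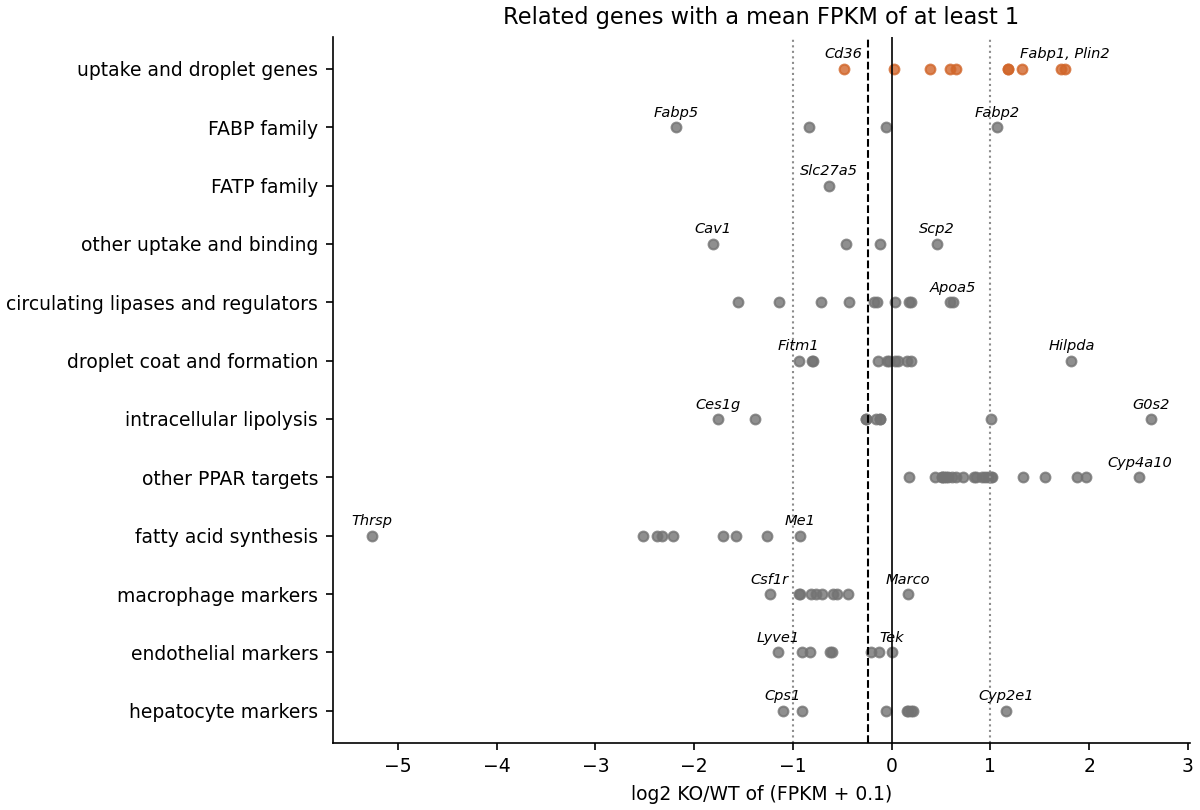
Log2 KO/WT ratio of each expressed gene, in rows by list, with the uptake and droplet genes in colour and some genes at the ends of the rows labelled. Dotted lines mark 2-fold, and the dashed line marks the median of all genes at -0.24, with the other PPAR targets lying to its right and the fatty acid synthesis genes to its left.

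The receptors that bind DR1 and their coactivators were also read. Ppara, the main PPAR of hepatocytes, was at 24.4 FPKM in WT and 25.2 in KO, and Rxra, the main RXR, at 91.2 and 114.0. Pparg was at 3.76 and 2.64 FPKM, and Rxrb at 9.60 and 9.15. Rxrg was at 1.52 and 1.87 FPKM, and the coactivators Ppargc1a and Ppargc1b were at 2.83 and 1.97, and at 0.600 and 0.404. Of the 7 that were expressed, Ppard and Ppargc1a among them, 0 were past 2-fold in either direction. Among all expressed genes 1.71% were past 2-fold higher and 8.23% past 2-fold lower.

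Other known PPAR targets of the liver lay on the higher side, as 9 of the 10 genes did. The 22 expressed ones were each higher in KO and 7 were past 2-fold, with a median log2 ratio of 0.84. Of all expressed genes, 24.4% were higher in KO and 1.71% past 2-fold higher. This list, like the others, was drawn up with earlier results of these data known. Cyp4a10, a fatty acid hydroxylase, was at 39.5 FPKM in WT and 226 in KO, 5.71-fold higher. The genes that make fatty acids lay on the other side, with 9 of 9 lower in KO, 8 of them past 2-fold, and a median of -2.21. Past 2-fold lower were 8.23% of all expressed genes. Scd1, the desaturase, was at 628 and 210.2 FPKM, Thrsp, a regulator of lipogenesis, at 156 and 3.95, and Me1, malic enzyme, at 80.3 and 42.1.

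Because fatty acid uptake and storage genes of the liver also respond to food intake, genes known to rise on fasting were read. Of 12 that were expressed, 6 were higher and 6 lower in KO, or 8 and 4 relative to the median gene. Past 2-fold were 3 higher and 1 lower, and the median log2 ratio was 0.21. Of all expressed genes, 24.4% were higher in KO by any amount, 1.71% past 2-fold higher and 8.23% past 2-fold lower. Some genes of the fasting list are also PPAR targets. Pck1, the gluconeogenic enzyme, was at 852 FPKM in WT and 818 in KO, Tat, tyrosine aminotransferase, at 1115 and 595, and Asns, asparagine synthetase, at 5.30 and 1.45. The part of food intake in the values of the 10 genes was not tested.

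The liver label was checked against 8 hepatocyte markers, which were expressed. They summed to 14870 FPKM in WT and 16012 in KO, with 5 higher and 3 lower, or 6 and 2 relative to the median gene. Single markers moved more than the sum: Cps1, of the urea cycle, was at 1597 FPKM in WT and 743 in KO, and Cyp2e1, a cytochrome P450, at 1039 and 2319. The 7 stellate cell markers were each lower in KO, 6 of them also relative to the median gene, with sums of 45.2 and 17.5 FPKM. Markers of cholangiocytes summed to 5.36 and 3.06 FPKM, of neutrophils to 14.8 and 7.87, of erythroid cells to 295 and 252, of lymphocytes to 0.731 and 0.407 and the 4 muscle markers found to 0.0463 and 0. The part of other cell types in the values of the 10 genes was not tested.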

How the data were processed

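RNA of regenerating livers was sequenced as 1 library of WT and 1 of KO liver with a kit that does not mark strand. Reads came from an Illumina instrument, paired end in the labels and single end in the methods. The authors aligned the reads with TopHat (2.0.0 in the submitters' processing notes) to NCBI37 (mm9), assembled transcripts with Cufflinks 1.3.0 and compared the libraries with Cuffdiff. The methods also name Baggerley's test. The deposited values used here are FPKM per locus and library. Whether quartile normalization was used is not given in the sources used here. The columns of the authors' own comparison (log2 ratio, statistic, p-value, q-value and call) were not used.

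Of 38016 loci, 21 marked HIDATA were left out, and the 850 loci with several symbols gave each symbol their joint value. Rows of a symbol were summed. Before log2 ratios were taken, 0.1 FPKM was added to each value, so ratios of low genes are understated. A mean of 1 FPKM over both libraries was required to count a gene as expressed. Fragments were estimated from 1245 single-exon genes of at least 1 kb, of which 45 in WT and 43 in KO had a value near that of 1 fragment. Loci were placed with GENCODE vM1 on NCBIM37, and coordinates count from 1. The tools were matplotlib 3.10.9, scipy 1.17.1, pandas 2.3.3 and numpy 2.4.6 under Python 3.11.15, and the steps were tested on simulated data.

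The 10 genes, the lists of related genes, PPAR targets, fatty acid synthesis, fasting and cell type markers, and the tests were chosen with earlier results of these data known. Named were the 10 genes, the PPAR receptors, and from each list of related, PPAR or fasting genes the 2 of highest mean FPKM and the largest fold in each direction among expressed genes. A few genes that it names are not reported here. Alternatives covered scaling, pseudocount, filter, fold, joint rows, rows marked OK and the handling of Plin4, Plin5 and Cidec.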

Additional observations from a re-analysis of the deposited data

How the results depend on the processing

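With 1 library per genotype no library could be left out. No paired analysis was possible because each genotype had 1 library and nothing pairs them. The count of uptake and droplet genes higher in KO by at least 2-fold was 5 in 11 of 14 alternatives. Several of these could not change it. The 10 genes were expressed and their rows were marked OK, so looser filters and the use of OK rows alone left it fixed. Scaling could not change it either, because Slc27a2, the nearest gene below 2-fold, stood at 0.66 and the largest scaling added 0.24. The count was 3 with joint loci left out, which drops Plin4 and Plin5, and 7 at 1.5-fold. With Plin4 and Plin5 counted once, an alternative chosen after seeing the data, it was 4. The count lower was 0 in the 14 alternatives, and the median log2 ratio ran from 0.62 to 1.16. Each of the 10 genes kept its direction in its alternatives. Each scaling raised the KO values, by a factor of 1.02 to 1.18. Such a scaling could not turn a gene that was higher in KO or add to the count lower, so it did not test these results. Cd36 ran from -0.49 to -0.25, and Pnpla2 from 0.02 to 0.26. Cidec ran from 1.12 to 1.77, the highest with its first row alone, also chosen after seeing the data. Of the 40 related genes, 12 were lower at 1.5-fold, against 6 at 2-fold. Over 70 single genes and 622 values, 0 changes of direction were seen in genes past 2-fold, which scalings of this size could not turn. Some genes nearer to 1 changed side with the scaling. Centring on the median gene moved the KO values up by 0.24 on the log2 scale, and with it 2.69% of expressed genes were past 2-fold higher and 5.77% past 2-fold lower. The estimated depth limits Cidec most, whose rows rest on the fewest fragments among the 10 genes.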
